A study of Mus musculus with 3 samples.

Results

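The transcript abundance profile of wild-type (WT) brain vessels was taken from the WT libraries of the series, 2 of its 3 RNA sequencing libraries, averaged as a reference. The first came from C57BL6 mice and the other from mice of a mixed C57BL6-BALB/c background, and neither line carried a deletion. The remaining library, from mice lacking Cx30 (Gjb6) in all cells, was used only to check the labels; its background is C57BL6 in the labels and a mix with BALB/c in the study's methods. All mice were 3 months old, and per the study's methods each library pooled vessels isolated from the whole brains of 3 males. The WT libraries differ in background, in mice and in preparation, so that they are not replicates of each other, and no difference between them was tested. Where both values are given, they show how far a level moved from pool to pool.

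Brain capillaries are lined by endothelial cells sealed by tight junctions, which together with their transporters form the blood-brain barrier (BBB). Pericytes and, on arterioles, vascular smooth muscle cells (VSMCs) lie on this endothelium within a basement membrane. Astrocyte endfeet, joined by connexin channels, cover the outer surface. The preparation is described as holding endothelial cells, VSMCs and pericytes. By staining for the astrocyte protein Gfap, the study saw a few positive fibers left on the vessels and no cell bodies of astrocytes.

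For each gene, the transcript row with the largest read count over both WT libraries was kept. Its count was divided by its length and by the library total, giving an RPKM value (reads per kilobase of transcript, scaled to the library total), here called the level. The totals, recovered from the deposited counts and fractions, were 24830975 for the C57BL6 library and 21170766 for the C57BL6-BALB/c library. Names were found for 69375 of 82813 transcript rows, which gave 29917 genes, 20001 of them protein-coding. Gjb6 had 2899 counts in the C57BL6 library, 2246 in the C57BL6-BALB/c library and 96 in the Cx30-deleted library, so that the targeted transcript followed the labels.

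Transcripts of about 2 genes in 3 were found in both pools. A count was present in both WT libraries for 19926 genes, in only 1 of them for 2012, and in neither for 7979. A level of at least 1 in both libraries was reached by 15057 genes (50.3% of all genes), of at least 10 by 7543 (25.2%), of at least 100 by 289 (0.966%) and of at least 1000 by 10 genes (0.0334%). The median level was 1.32 over all genes and 5.62 over protein-coding genes. The 10 highest genes held 8.19% of the summed mean level, the 100 highest 18.3% and the 1000 highest 41.7%.

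The order of genes was much alike in both pools. Across the genes with a count in both libraries, which share the annotation, lengths and read processing, Spearman's rho of the levels was 0.98. The lists of the 100 highest genes of the libraries had 77 genes in common, and those of the 1000 highest had 803. Genes at fixed ranks give the scale of the profile. At rank 100 stood Rtn3, a reticulon of the endoplasmic reticulum, with levels of 217 in the C57BL6 and 193 in the C57BL6-BALB/c library. At rank 1000, Rnpepl1 had levels of 57 and 53.1, and at rank 10000 the row named Olfr558, an olfactory receptor gene, had levels of 7.68 and 5.85. The curve of level against rank therefore stayed within about 3 orders of magnitude for the 10000 highest genes and dropped steeply after them.

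**Figure D1:**
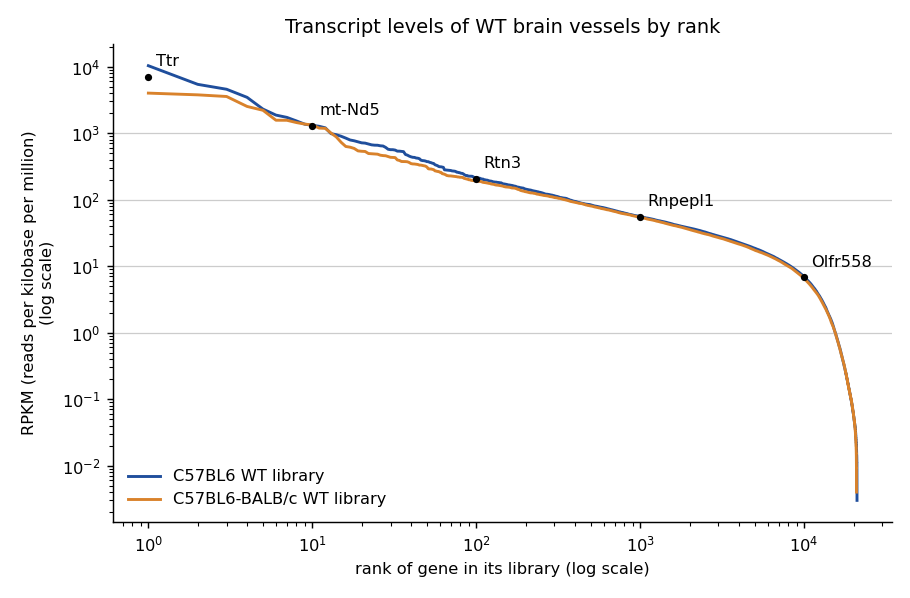
Level of each gene (RPKM, log scale) against its rank in its own library (log scale), with the C57BL6 WT library in blue and the C57BL6-BALB/c WT library in orange, and black points at the mean level of 5 genes set at their rank by the mean. The lines nearly overlap beyond rank 100 and lie apart at the highest ranks, where the C57BL6 line starts with Ttr at 10338 and the C57BL6-BALB/c line with mt-Cytb at 4004.

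The nuclear protein-coding genes are described from the highest level down. Ttr, the thyroxine carrier transthyretin, which is made in the brain by the choroid plexus, was the highest of all genes, with levels of 10338 in the C57BL6 and 3770 in the C57BL6-BALB/c library (mean 7054 ± 4645, SD, n = 2). Ptgds, a prostaglandin D synthase abundant in meninges and choroid plexus (chr2:25466709-25470046), had levels of 3459 and 3560 (3510 ± 72.0, SD, n = 2).

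Snhg11, a small nucleolar RNA host gene listed as protein-coding in GENCODE M21, followed with levels of 1311 in the C57BL6 and 2209 in the C57BL6-BALB/c library. Apoe, the lipid carrier of astrocytes and microglia, had levels of 1528 and 1193, and Bsg, the transporter chaperone basigin of brain endothelium (chr10:79704491-79711969), levels of 1726 and 878. These 5 genes were the only nuclear protein-coding genes with a mean level above 1000. Next came Tmsb4x, an actin-binding thymosin, with levels of 984 and 534, B2m, the light chain of MHC class I, with 948 and 531, and Cst3, the protease inhibitor cystatin C, with 768 and 491. Cldn5, the main tight junction protein of brain endothelium (chr16:18776847-18778262), had levels of 842 and 375, from 29576 and 11223 counts, and was the ninth of the nuclear protein-coding genes.

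Matrix and transport genes stood close behind Cldn5. Sparcl1, a secreted matrix protein, had levels of 611 in the C57BL6 and 541 in the C57BL6-BALB/c library. Mgp, an inhibitor of vascular calcification, had levels of 658 and 486. Slc2a1, the glucose transporter GLUT1 of the BBB (chr4:119108711-119137983), had levels of 660 and 483. Mbp, encoding myelin basic protein, lay next to Slc2a1 with levels of 646 and 494, and Acta2, the smooth muscle actin of VSMCs, had levels of 440 and 615. The remaining genes of the 30 highest were Itm2b, Ly6e, Fth1, Cpe, Psap, Pltp, Myl9, Ly6a, Clu, Enpp2, Snrnp70, Selenop, Rsrp1, App, Vtn and Nnat, with mean levels from 537 for Itm2b down to 361 for Nnat. Below Cldn5, genes of the vessel wall and of glia were thus interleaved, with mean levels from 576 for Sparcl1 to 361. Of the choroid plexus list described below, Enpp2 lay within this range and Ttr far above it.

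**Figure D2:**
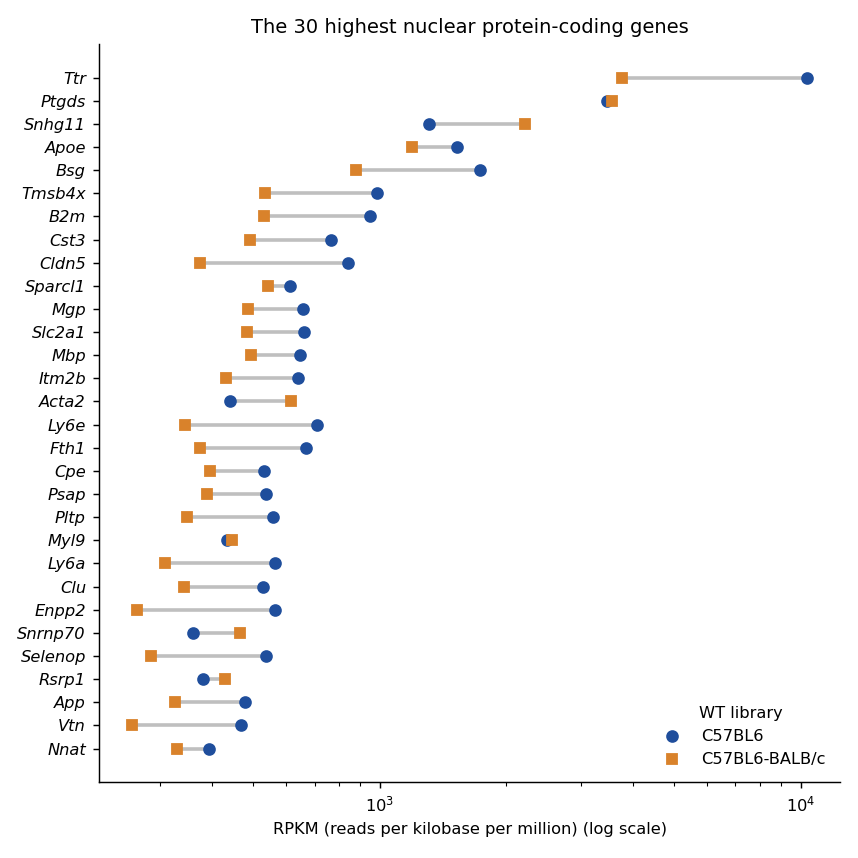
Level (RPKM, log scale) of the 30 nuclear protein-coding genes with the highest mean, 1 gene per line, with a blue circle for the C57BL6 WT library and an orange square for the C57BL6-BALB/c WT library. Ttr spans the widest distance, from 3770 to 10338, while the Ptgds points, at 3459 and 3560, nearly coincide.

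The sequence before the transcription start of a few of these genes shows the features described further on, CG dinucleotides and TATA motifs. The bases below, from RefSeq on GRCm38.p6, end at the transcription start or where GENCODE M21 already places the gene. They are written 5′ to 3′ on the strand of the gene, and capitals mark every CG dinucleotide and, where present, a TATAAA or TATATA motif that starts 40 to 20 bases before the RefSeq start. Cldn5 and Slc2a1 stand for BBB endothelium, Atp1b1 (a sodium pump subunit), B2m and Rgs5 (a pericyte regulator of G-protein signaling) for highly expressed genes with such a motif, and Umod (kidney uromodulin) and Fgb (liver fibrinogen) for genes with no count in either WT library.
Cldn5, chr16:18776697-18776846, plus strand: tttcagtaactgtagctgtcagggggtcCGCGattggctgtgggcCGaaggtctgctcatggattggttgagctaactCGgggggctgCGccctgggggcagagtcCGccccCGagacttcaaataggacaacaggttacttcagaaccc
Slc2a1, chr4:119108595-119108710, plus strand: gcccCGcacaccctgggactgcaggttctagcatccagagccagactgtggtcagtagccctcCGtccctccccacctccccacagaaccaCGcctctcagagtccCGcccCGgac
Atp1b1, chr1:164458356-164458505, minus strand: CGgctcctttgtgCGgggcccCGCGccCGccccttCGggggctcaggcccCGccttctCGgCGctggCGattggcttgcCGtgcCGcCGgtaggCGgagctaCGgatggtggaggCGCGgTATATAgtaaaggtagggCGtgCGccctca
B2m, chr2:122147537-122147685, plus strand: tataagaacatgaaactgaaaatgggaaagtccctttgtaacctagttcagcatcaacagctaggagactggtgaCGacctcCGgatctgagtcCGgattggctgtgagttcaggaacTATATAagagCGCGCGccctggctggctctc
Rgs5, chr1:169655351-169655500, plus strand: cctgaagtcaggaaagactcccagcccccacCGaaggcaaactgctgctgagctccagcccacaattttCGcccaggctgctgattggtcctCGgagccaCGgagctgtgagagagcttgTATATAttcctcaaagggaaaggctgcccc
Umod, chr7:119479283-119479412, minus strand: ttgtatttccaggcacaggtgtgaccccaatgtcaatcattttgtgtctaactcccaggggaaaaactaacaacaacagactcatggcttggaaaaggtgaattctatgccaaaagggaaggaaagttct
Fgb, chr3:83049864-83050013, minus strand: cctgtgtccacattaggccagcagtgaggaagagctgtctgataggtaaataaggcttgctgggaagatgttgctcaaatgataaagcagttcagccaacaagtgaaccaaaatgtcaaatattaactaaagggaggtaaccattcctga
The printed stretches hold 7 CG dinucleotides for Cldn5, 5 for Slc2a1, 19 for Atp1b1, 6 for B2m and 4 for Rgs5. In those of Umod and Fgb there are 0. The stretches differ in length, with 116 bases for Slc2a1, 130 for Umod, 149 for B2m and 150 for the others. Stretches taken in the same way but not printed hold 14 for Klf2, 11 for Fos, 4 for Itm2a and 2 for Vtn. They hold 2 for the liver gene Alb and 1 for Tnp1, which also has no count.

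To place the profile among cell classes, 20 lists of marker genes of vascular, brain and blood cells and of other organs were ranked, 271 genes in all. The percentile of a gene is its place among all 29917 genes, and the highest decile, which holds 10% of genes by definition, starts at a mean level of 27.8. Among protein-coding genes alone, the highest 10% start at 35.1 and the next 10% at 21.2. More than 10% of protein-coding genes are thus in the highest decile of all genes. Protein-coding genes had a median percentile of 64.0, against which the lists are to be read, since nearly all markers are protein-coding. In 6 of the 20 lists the median was at or above the 90th percentile. Fewer cells of a class and less RNA per cell cannot be told apart in these bulk libraries.

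Endothelial markers stood highest. Their list had a median percentile of 98.2 and a median level of 77.4, with 35 of 40 genes in the highest decile and 39 at a level of at least 10 in both libraries. After Cldn5 and Slc2a1 came Pltp, a phospholipid transfer protein, with levels of 557 in the C57BL6 and 349 in the C57BL6-BALB/c library. The surface protein gene Ly6a had levels of 564 and 310, and the membrane protein gene Itm2a 451 and 203. Calcrl, the receptor partner of Ramp2 in adrenomedullin signaling, was the lowest member, at 14.5 and 8.20. The sum over the list was 1.88% of all levels in the C57BL6 and 1.23% in the C57BL6-BALB/c library.

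Markers of the vascular segments differed in their place. The capillary list had a median percentile of 96.2, with 6 of 8 genes in the highest decile. It was led by Spock2, an extracellular proteoglycan, with levels of 413 and 224. The endothelial list also holds Spock2, Tfrc and Mfsd2a. Car4, a carbonic anhydrase on the endothelial surface, had levels of 155 and 93.0. Slc7a5, the transporter of large neutral amino acids, had levels of 107 and 73.3. The receptor for transferrin, Tfrc, at 59.7 and 57.2, and the monocarboxylate transporter Slc16a1, at 59 and 32.5, were in the highest decile as well. The cationic amino acid transporter Slc7a1 was the lowest, at 22.5 and 16.7.

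Venous and arterial genes followed. The venous list had a median percentile of 91.4, with 6 of 9 measured genes in the highest decile. The lipocalin gene Lcn2, known to respond to inflammation, was its highest member by the mean, with levels of 143 in the C57BL6 and 21.7 in the C57BL6-BALB/c library. The adhesion molecule gene Vcam1 had levels of 87.9 and 59.5, and Ackr1, an atypical chemokine receptor of venules, 83.2 and 61.4. Sele, encoding the E-selectin of inflamed endothelium, was nearly absent at 0.622 and 0.438. For the arterial list the median percentile was 89.7, and 7 of 14 genes were in the highest decile. By library, the venous median was 94.9 in the C57BL6 and 86.8 in the C57BL6-BALB/c library, and the arterial 90.7 and 88.9. The order of the venous and arterial lists thus changed from pool to pool. Tm4sf1, a tetraspanin-like membrane protein, led the arterial list with 268 and 165, before Gkn3, a known marker of brain arterial endothelium, with 128 and 50.2. Its lowest member was Gja5, the arterial connexin Cx40, at 10.2 and 10.3.

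Among mural cells, the list of contractile genes had a higher median than that of pericyte genes. The smooth muscle list had a median percentile of 93.2, with 8 of 13 genes in the highest decile, and the pericyte list 84.7, with 6 of 15. Behind Acta2, the myosin light chain gene Myl9 had levels of 433 in the C57BL6 and 445 in the C57BL6-BALB/c library. Tagln (transgelin, which binds actin) had levels of 255 and 341, and Myh11, the smooth muscle myosin heavy chain, 73.0 and 116. Myocd, the transcriptional coactivator of contractile genes, was the lowest of this list at 0.836 and 1.40.

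Pericyte genes were led by a pair of abundant transcripts, and most other members were moderate. Vtn, encoding the adhesion protein vitronectin, had levels of 467 in the C57BL6 and 258 in the C57BL6-BALB/c library, and Rgs5 had 385 and 228. The PDGF receptor gene Pdgfrb, required to recruit pericytes, had levels of 60.2 and 35.2. The lowest member was Abcc9, a subunit of potassium channels, at 9.83 and 6.21. The fibroblast list, whose cells line larger vessels, had a median percentile of 82.4, with 3 of 12 genes in the highest decile. Its highest member was the matrix proteoglycan gene Dcn, with levels of 59.9 and 52.9, and its lowest Dpep1, a dipeptidase gene, at 0.660 and 0.201.

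By their medians in the reported profile, genes of astrocytes and neurons ranked beside those of capillary endothelium. The astrocyte list had a median percentile of 96.4, with 12 of 20 genes in the highest decile, and the neuron list 96.3, with 13 of 20. Atp1b2, a sodium pump subunit, had levels of 154 in the C57BL6 and 118 in the C57BL6-BALB/c library. Gfap, the intermediate filament of astrocytes, had levels of 94.1 and 88.0. The glutamate transporter gene Slc1a2 had 87.4 and 85.0. Aqp4, the water channel of endfeet, stood at 8.98 and 12.3, below these and outside the highest decile, and the claudin gene Cldn10 was the lowest of the list at 5.73 and 4.99.

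Neuronal markers were led by genes of the synapse. Snap25, a protein of vesicle fusion, had levels of 199 in the C57BL6 and 282 in the C57BL6-BALB/c library. Syp (synaptophysin of synaptic vesicles) had 225 and 193, Camk2a, the calcium-dependent kinase of excitatory synapses, 167 and 244, and Slc17a7, the vesicular glutamate transporter, 170 and 199. Gad2, an enzyme of GABA synthesis, was the lowest member at 7.0 and 12.1. The neuron list summed to 0.466% of all levels in the C57BL6 and 0.583% in the C57BL6-BALB/c library, and the astrocyte list to 0.368% and 0.337%. How much of the RNA came from non-vascular cells or their processes was not tested.

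Myelin genes were present at high levels, with a wide spread among them. The oligodendrocyte list had a median percentile of 89.7, with 6 of 14 genes in the highest decile. Besides Mbp, the myelin protein gene Mal had levels of 126 in the C57BL6 and 95.5 in the C57BL6-BALB/c library. Ermn, encoding ermin of late oligodendrocytes, was the lowest at 3.68 and 2.82. Without Mbp, the list had a median percentile of 89.5. Genes of oligodendrocyte precursors were lower, at a median percentile of 67.2, with 0 of 7 measured genes in the highest decile, from Olig1, a lineage transcription factor, at 19.8 and 13.7 to Neu4, a sialidase, at 2.08 and 2.35.

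The choroid plexus list was dominated by 2 genes. It held 3.11% of all levels in the C57BL6 and 1.27% in the C57BL6-BALB/c library, but 0.224% and 0.114% without Ttr. Enpp2, the lysophospholipase autotaxin, which oligodendrocytes express as well, had levels of 565 and 265. Kcnj13, a potassium channel of the plexus epithelium, followed with 39.7 and 16.2, and the lowest member was the prolactin receptor gene Prlr at 6.12 and 3.11. The median percentile was 83.6, and 80.7 without Ttr and Enpp2. The ependymal list, of the ciliated cells lining the ventricles, had a median percentile of 88.0, with 4 of 9 genes in the highest decile, and was led by Rarres2 (the chemoattractant chemerin) at 147 and 107, while the cilium gene Hydin was lowest at 1.84 and 2.08.

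Genes of immune and blood cells ranked lower. Microglial genes had a median percentile of 79.7, with 4 of 15 in the highest decile. Their highest members were the complement genes C1qa, with levels of 61.1 in the C57BL6 and 33.6 in the C57BL6-BALB/c library, C1qb, with 49.1 and 26.5, and C1qc, with 45.9 and 25.4. The lowest was Trem2, a lipid receptor, at 3.21 and 1.64. Perivascular macrophage genes had a median percentile of 62.9, with 0 of 8 genes in the highest decile. Stab1, a scavenger receptor, was their highest member at 18.5 and 13.7, and the hemoglobin scavenger receptor gene Cd163 the lowest at 1.93 and 1.92.

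Red blood cell transcripts were uneven. The beta-globin gene Hbb-bs had levels of 335 in the C57BL6 and 189 in the C57BL6-BALB/c library, and Hbb-bt 76.5 and 33.7. The alpha-globin genes Hba-a1, at 3.59 and 2.68, and Hba-a2, at 1.88 and 0.191, were far lower. The alpha-globin transcripts share 88.8% of their 50-base windows with each other, Hbb-bs shares 65.8% of its own with Hbb-bt, and Hbb-bt 58.3% with Hbb-bs. Reads matching more than once had been removed, so that the levels of all 4 genes are uncertain. The erythroid list had a median percentile of 57.4, and 40.2 without the globin genes. Its lowest member, Epb42 of the red cell membrane skeleton, was at 0.010 and 0.046.

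Genes of other blood cells and of other organs were near or below the median of all genes. The median percentiles were 51.1 for neutrophils, 46.6 for platelets, 43.5 for lymphocytes and 42.6 for a list of liver, muscle, gut, pancreas, kidney and testis genes. None of the genes in these 4 lists was in the highest decile. The calgranulin gene S100a9 of neutrophils reached levels of 18.2 in the C57BL6 and 10.1 in the C57BL6-BALB/c library. Gp1bb, a platelet receptor subunit, had levels of 4.31 and 5.64, and Cd4, the T helper cell coreceptor, which macrophages can also carry, 2.49 and 1.47. The T cell gene Cd8a was at 0.175 and 0.154. Of the other-organ genes, the gut galectin gene Lgals4 was the highest at 16.7 and 12.7, whereas Fgb, Tnp1 (a nuclear protein of spermatids) and Umod had no count. For Umod, a count of 0 allows a level of up to 0.049 in the C57BL6 and 0.057 in the C57BL6-BALB/c library, the level that 3 counts would give. Such limits and the library totals cover counting error only.

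**Figure D3:**
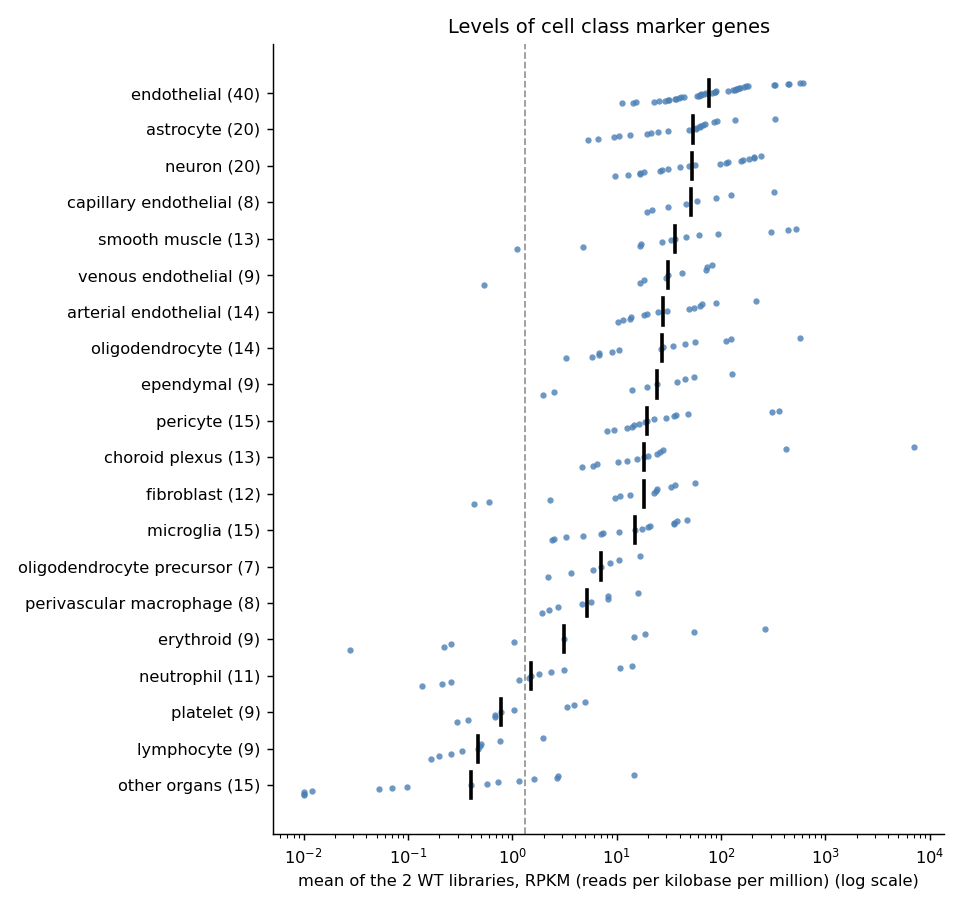
Mean level of the 2 WT libraries (RPKM, log scale) of every measured gene in 20 cell class lists, 1 list per line with its number of genes in brackets, ordered by median (black bar). Blue points are genes, those under 0.01 are drawn at 0.01, and the dashed line marks 1.32, the median of all genes. Endothelial genes are at the top with a median of 77.4 and genes of other organs at the bottom with 0.403.

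Genes of barrier function were then described by role. The tight junction list had a median percentile of 92.8, with 8 of 14 genes in the highest decile. Esam, an adhesion molecule of endothelial junctions, had levels of 186 in the C57BL6 and 115 in the C57BL6-BALB/c library, and Lsr, which organises tricellular junctions, 87.5 and 57.2. The scaffold gene Tjp1 (ZO-1) had 67.3 and 54.8. Within the claudins, Cldn5 was more than 2 orders of magnitude above Cldn3, at 1.82 and 1.91, and Cldn1, at 5.38 and 2.26. The lowest member of the list was Cgn, the epithelial junction protein cingulin, at 1.57 and 2.16.

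Receptors and coat genes of transport across the endothelium had a median percentile of 93.5, with 7 of 13 genes in the highest decile. The caveolar genes Cavin1, with levels of 173 in the C57BL6 and 127 in the C57BL6-BALB/c library, and Cav1, with 120 and 84.6, were the highest. Fcgrt, the neonatal receptor for immunoglobulin, had levels of 98.5 and 68.5. Lrp1, a receptor for lipoproteins and amyloid beta, had 44.5 and 44.1. Ager, the receptor for advanced glycation products, was the lowest at 3.85 and 3.03.

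The solute carriers as a family ranked only slightly above protein-coding genes in general, with a few members at the top. Over 379 genes taken by their Slc or Slco symbols, the median percentile was 69.4, and 68 genes were in the highest decile. After Slc2a1, Slc22a17, a receptor-like carrier of lipocalin 2, had levels of 330 in the C57BL6 and 320 in the C57BL6-BALB/c library. The taurine carrier gene Slc6a6 had 196 and 165, and Slco1a4, an organic anion carrier of the BBB, 225 and 119. Of 50 ABC transporter genes, 5 were in the highest decile, and their median percentile was 70.0. Abcc5, an exporter of organic anions, was the highest at 84.7 and 107, followed by the BBB drug pump gene Abcb1a (P-glycoprotein) at 79.2 and 44.2. In both families some members had no count, 16 of the solute carriers and 2 of the ABC transporters.

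Basement membrane genes had a median percentile of 88.7, with 7 of 14 genes in the highest decile. Sparc, a collagen-binding matrix protein, had levels of 420 in the C57BL6 and 289 in the C57BL6-BALB/c library. Fn1, encoding fibronectin, had 132 and 102, and the proteoglycan gene Agrn 119 and 126. The collagen IV chain genes Col4a1, at 82.0 and 68.8, and Col4a2, at 76.3 and 85.3, were close to each other and are transcribed from a shared promoter region. The nidogen gene Nid2 was the lowest at 8.09 and 4.38.

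The connexin genes, to which the deleted gene of the study belongs, spanned from astrocyte to neuronal members. The astrocyte connexins were highest. Gja1 (Cx43) had levels of 67.4 in the C57BL6 and 65.8 in the C57BL6-BALB/c library, and Gjb6 (Cx30; chr14:57123303-57133611) had 66.4 and 60.3, so that the 2 genes differed by less than the pools did for Gjb6. Gja4 (Cx37 of arterial endothelium) followed with 56.6 and 41.2, and Gjc1 (Cx45 of VSMCs) with 28.5 and 23.4. Gjb2 (Cx26) had 21.2 and 16.3, and Gjc3 (Cx29 of myelinating glia) had 14.1 and 14.2. Below these were Gja5 and the oligodendrocyte connexin gene Gjb1 (Cx32), at 4.55 and 3.84. The neuronal Gjd2 (Cx36) was the lowest at 1.96 and 1.44. The median percentile of the 10 genes was 81.4.

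The sarcoglycan complex joins dystrophin-associated proteins at the membrane. The 6 genes of the list had a median percentile of 57.5, with 0 in the highest decile. Among them, Sgcb had levels of 20.9 in the C57BL6 and 27.7 in the C57BL6-BALB/c library, and Sgce 22.1 and 19.7. Sspn, encoding sarcospan, had levels of 6.99 and 5.27. Sgca was at 1.38 and 1.21, Sgcz at 0.599 and 1.05, and Sgcd at 0.498 and 0.993. The list of dystrophin partners had a median percentile of 82.3, with 2 of 8 genes in the highest decile. Utrn (utrophin, the dystrophin homolog) had levels of 41.8 and 31.8, Dag1 (dystroglycan) 36.7 and 33.8, Dtna (an astrocyte dystrobrevin) 19.6 and 25.4 and Dmd (dystrophin) 8.47 and 8.79, while the syntrophin gene Sntb1 was the lowest at 3.20 and 2.78.

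Immediate early genes, which cells switch on within minutes of a stimulus, were high as a group. Of 15 genes, 14 were in the highest decile, and the median percentile was 95. The nuclear receptor gene Nr4a1 had levels of 190 in the C57BL6 and 217 in the C57BL6-BALB/c library. Klf2, a transcription factor of endothelium under flow, had 179 and 53.6, Dusp1, a phosphatase of MAP kinases, 124 and 52.3, and Egr1, a zinc finger factor, 84.1 and 79.2. The antiproliferative gene Btg2 had 85.5 and 39.4, and Atf3, a stress-induced factor, was the lowest at 11.7 and 4.93. Heat shock genes had a median percentile of 75.2, with 3 of 10 measured genes in the highest decile. Of these 10, however, 5 share more than 10% of their 50-base windows with genes elsewhere, against 0 of the immediate early genes. Reads matching more than once had been removed, so that the levels of these 5 are uncertain. When the length counted only windows found in no gene elsewhere, the medians were 81.8 for heat shock and 92.7 for immediate early genes. The chaperone gene Hsp90ab1 had levels of 276 and 223 and Hspa5, the chaperone of the endoplasmic reticulum, 217 and 208, while the inducible Hspa1a was at 0.397 and 0.514.

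Several low values belong to transcripts that have near copies in the genome. The share of 50-base windows of a transcript that also occur in a gene elsewhere (GENCODE M21, both strands) was computed because reads matching more than once had been removed. Of the protein-coding genes, 13739 shared 0% of their windows and had a median level of 7.81. The 3743 genes sharing up to 10% had a median of 5.75, the 1772 genes sharing more than 10% and up to 50% a median of 0.035, and the 747 genes sharing more than 50% a median of 0. Gene families differ in more than their copies, so that this order is a description.

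Widely used housekeeping genes lay in the shared classes. Hspa1a shares windows with Hspa1b, and the cytosolic chaperone gene Hsp90aa1 (58.5% shared) had levels of 1.73 in the C57BL6 and 1.48 in the C57BL6-BALB/c library. The glycolytic enzyme gene Pgam1, which shares 41.5% of its windows with the pseudogene Pgam1-ps2, was at 0.362 and 0.565. The glycolysis list as a whole had a median percentile of 89.0, with 7 of 15 genes in the highest decile. Its highest members were Pfkm at 73.4 and 85.6, Aldoa at 80.9 and 68.6, Gpi1 at 55.4 and 90.4, Pfkp at 48.4 and 56.2 and Pkm at 55.9 and 43.5, each an enzyme of the pathway. Ribosomal protein genes, among the most expressed genes of most cells, had a median percentile of 64.9 over 93 symbols. Without the Rps6k kinases and Rps19bp1, which are no ribosomal proteins, 82 genes had a median percentile of 64.1, and 68 of them shared more than 10% of their windows. Rpl8, which shares 7.86%, was the highest at 249 and 155. The 82 genes still include some named as copies or relatives of ribosomal protein genes, such as Rps12-ps3, Rpl10-ps3, Rpl9-ps6 and Rps27rt. How far these set the median and the shared count was not tested. Nuclear genes with respiratory chain symbols, 91 in all with a median share of 0%, had a median percentile of 88.1, led by the ATP synthase subunit gene Atp5b at 208 and 158. Not all of them are chain subunits, since the symbols also take in Ndufaf7, an assembly factor, and Ndufa4l2 of the pericyte list.

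The mitochondrial genome showed the same feature in a single block. Of its 13 protein genes, 7 were in the 15 highest genes of the profile and 6 were nearly empty. Cytochrome b (mt-Cytb) had levels of 5422 in the C57BL6 and 4004 in the C57BL6-BALB/c library, and the complex I subunit gene mt-Nd1 had 4575 and 2523. From mt-Co2 (chrM:7013-7696) to mt-Nd4l (chrM:9877-10173), however, every protein gene was below a level of 4. The cytochrome oxidase subunit gene mt-Co2 had 9 and 6 counts, mt-Atp6 had 6 and 3, mt-Co3 had 6 and 3, mt-Nd3 had 33 and 19, and mt-Nd4l had 0 and 0. These 5 genes share between 98.0% and 100% of their windows with other genes, chiefly a row of pseudogenes at chr1:24611535-24616197. For mt-Co2 the partner is Gm28661 and for mt-Atp6 it is Gm10925.

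The genes at the borders of the block were covered in part. In mt-Nd4, 62.2% of the windows are shared with Gm28439, and 56.2% of its bases in the C57BL6 and 59.9% in the C57BL6-BALB/c library had no read, at levels of 1870 and 1330. In mt-Co1, 51.1% of the windows are shared, and 24.3% and 29.3% of the bases had no read. Outside the block, mt-Nd5 and mt-Nd6 had a read at every base. mt-Nd6, with levels of 1203 in the C57BL6 and 1004 in the C57BL6-BALB/c library, lies on the minus strand, unlike the other mitochondrial protein genes. Because the libraries were made without strand, its reads cannot be told apart from antisense reads. mt-Atp8, inside the block, had 0 and 1 counts although its annotated transcript shares 0% of its windows with a gene elsewhere. Gene annotation alone was searched here, not the genome between genes. How far the removal of reads matching more than once set the levels of the block was not tested.

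**Figure D4:**
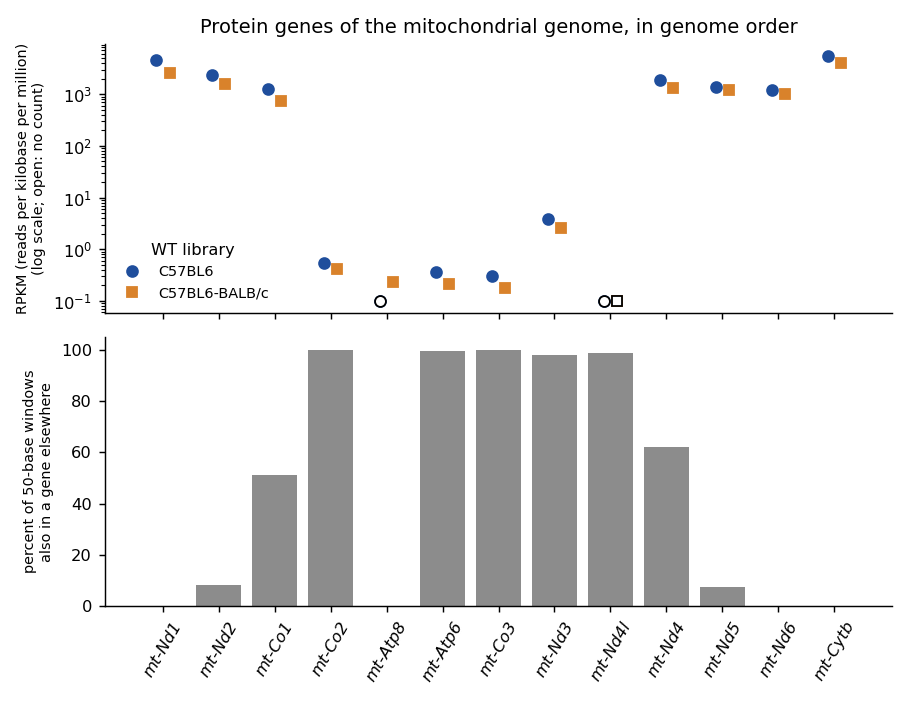
Upper panel, level (RPKM, log scale) of the 13 mitochondrial protein genes in genome order, with blue circles for the C57BL6 WT library, orange squares for the C57BL6-BALB/c WT library and open symbols for genes with no count. Lower panel, percent of each transcript's 50-base windows that also occur in a gene elsewhere. The 5 genes with 98.0% to 100% shared windows and mt-Atp8 are the 6 genes at the bottom of the upper panel.

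Very short genes also reached the top of the profile. Among the 100 highest genes were 86 protein-coding genes, 6 microRNA genes, 4 mitochondrial tRNA genes, 2 mitochondrial rRNA genes, 1 snoRNA gene and 1 long noncoding RNA, the imprinted Meg3, with levels of 739 in the C57BL6 and 1369 in the C57BL6-BALB/c library. All 7 nuclear genes of less than 200 bases among them lay inside another gene. Mir1906-1 (chr12:109544541-109544620), with levels of 898 and 1562, and Mir770 (chr12:109563692-109563785), with 572 and 1444, lie within Meg3 on its strand. A fragment of the longer host transcript would be counted for them as well, and since the libraries were made without strand, overlapping and antisense genes cannot be told apart. Of 24 nuclear genes of this length among the 1000 highest, 23 lay inside another gene. The share of all measured genes of this length that lie inside another gene was not counted. These counts therefore show no feature particular to the highest genes.

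Across protein-coding genes, the promoter features shown above varied with the level. A RefSeq promoter (250 bases before to 50 after the start) within 100 bases of the start of the chosen transcript was found for 12506 of 20001 genes. The genes were put into deciles by mean level. Genes with a mean level of 0 make up decile 10 and reach into decile 9. They were split between these deciles by symbol, so that a difference between the 2 deciles is not one of level alone. The median ratio of observed to expected CG dinucleotides was 0.775 in the highest decile, stayed between 0.717 and 0.802 down to decile 6 and was 0.128 in the lowest. The ratio was 0.476 for Cldn5, 0.605 for Slc2a1 and 0.821 for Atp1b1, and 0.374 as the median of 21 endothelial genes with a promoter, below the 0.626 of all genes matched. Of the genes with no count, Umod had a ratio of 0, Fgb of 0.311 and Tnp1 of 0.313, against 0.253 for the endothelial gene Itm2a. Immediate early genes had a median of 0.827 and nuclear respiratory chain genes of 0.833.

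A TATAAA or TATATA starting 40 to 20 bases before the start, on the strand of the gene, was found in 3.98% of the promoters matched and in 2.74% of all 32851 promoters of the table. These motifs do not overlap the CG dinucleotides counted. The share was 2.04% in the highest decile, 1.01% in decile 3, and 10.3% and 8.82% in the lowest pair of deciles. Among the 100 highest protein-coding genes, 6 of 56 promoters had such a motif (10.7%), those of B2m, Atp1b1, Rgs5, Ndrg4 (a neuronal gene of the NDRG family), Hspa5 and Ddx5 (an RNA helicase). In Rgs5 and Atp1b1 the motif starts 30 bases before the start and in B2m 32 bases before it. A match is a description of letters, and whether a factor binds there was not measured.

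**Figure D5:**
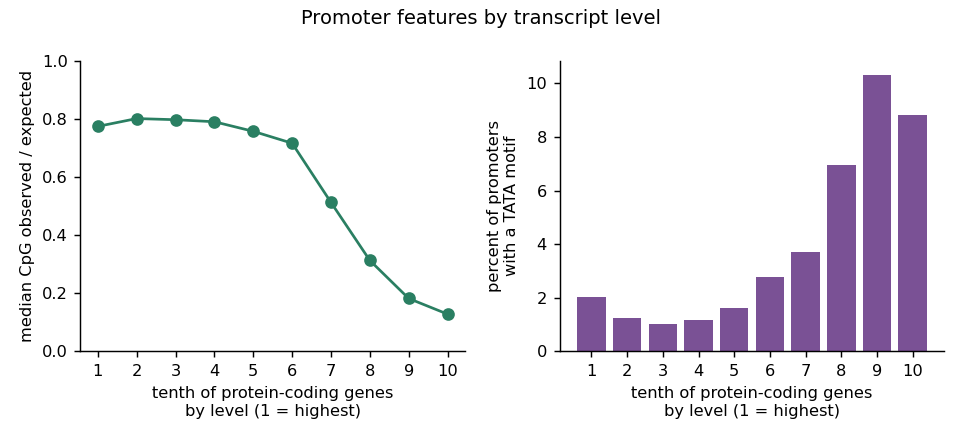
Promoter features of protein-coding genes in deciles by mean level, 1 being the highest. Left, median ratio of observed to expected CG dinucleotides, which falls from 0.775 to 0.128. Right, percent of promoters with TATAAA or TATATA starting 40 to 20 bases before the start, 2.04 in the highest and 8.82 in the lowest decile. Genes with a mean level of 0 make up decile 10 and part of decile 9, split by symbol.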

How the data were processed

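Polyadenylated RNA of isolated brain vessels was read as 50-base single reads from libraries made without strand. Per the methods, the authors trimmed and filtered the reads with Eoulsan, aligned them with Bowtie and removed reads matching more than once. The labels also name CASAVA 1.8.2. The authors deposited, for each of 82813 Ensembl transcripts, a raw count of alignments overlapping its exons, the same count as a fraction of a library total, its length and its bases without a read. What the total counts is not given in the sources used here. The labels name mm10, but positions in the files reach 197054592 on chromosome 1, beyond the last gene end of GENCODE M21 there, 195323493. Coordinates are therefore those of GENCODE M21 (GRCm38), through which identifiers were given names, and 13438 rows without a name were left out.

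Levels were computed with pandas 2.3.3 and numpy 2.4.6, and the computation was tested on simulated data. With no contrast, no test was made. Genes in the text were the 30 highest nuclear protein-coding genes, the mitochondrial protein genes, genes at ranks 1, 10, 100, 1000 and 10000, the up to 5 highest genes and the lowest of each list, and the connexin and sarcoglycan complex genes. Some genes that this rule names are not reported here. The genes named beyond this rule (among them Aqp4, Tjp1, Cldn1, Cldn3, Hba-a2, promoter examples and genes with shared windows) were chosen after their values were seen. The members and lists were chosen with earlier results of these data known. Markers not found under their symbol were Selp, Lhfpl3, Hbb-b1, Ms4a1 and Hspa1b. Alternatives were each WT library alone, other transcript rows, scalings, lengths, averages, gene sets and a minimum of 10 counts.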

Additional observations from a re-analysis of the deposited data

Results flagged for a closer look

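Transcript rows without a gene name, which the profile does not use, held 16.0% of the counts in the C57BL6 WT library and 16.6% in the C57BL6-BALB/c WT library. Most of them overlap the span of a named row on the same strand, introns included. How many of their reads were counted in the named rows too was not tested. The 3828 unnamed rows that overlap no named row on their strand held 0.87% and 0.88% of the counts. At a level of at least 100 in both WT libraries there were 155 unnamed rows, and 10 of these overlapped no named row.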

How the results depend on the processing

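With levels scaled to the same sum in each library (TPM), 12032 genes passed a level of 10 in both libraries, 1834 a level of 100 and 41 a level of 1000, against 7543, 289 and 10, since each level is then larger by construction. Without division by length, 2196 genes passed 100 and 26 passed 1000, and the highest 10 and 100 genes held 5.22% and 13.8% of the summed level. With at least 10 counts required in each WT library, the lists with a median at or above the 90th percentile were 2 in place of 4 for functions, the mitochondrial genome counted among them, and 4 in place of 6 for cell classes. The same filter moved 28 of 34 list medians by more than 5 percentile points, 27 down and the erythroid list up to 67.3. Ranking protein-coding genes alone moved 18, all down, and leaving out the division by length moved 10, the nuclear respiratory chain from 88.1 to 71.9. With protein-coding genes alone or the minimum of 10 counts, percentiles were ranked anew without many low genes, which lowers most of them by construction. The ribosomal protein median went from 64.9 to 73.0 and the erythroid median from 57.4 to 77.8 when the length counted only windows found in no gene elsewhere, an alternative chosen after seeing the data, as was leaving out genes under 200 bases. The endothelial list had the highest median of the cell class lists in the reported profile and in all 13 alternatives run, between 96.8 and 98.6. The place of the astrocyte and neuron lists beside the capillary list depended on the transcript row and on length. With the longest row, the medians were 95.026 for astrocytes, 90.945 for neurons and 96.383 for capillary endothelium. Without division by length, they were 92.503, 94.411 and 96.338. In the other alternatives these medians lay closer together. Depth limits genes with few counts, whose order is not resolved. No paired analysis was possible because the groups of the series share only 1 replicate number and no comparison between groups was made.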
